A study of Mus musculus with 3 samples.

Results

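Of the 6911 Setd1a peaks on chromosomes 1 to 19, 481 lay between genes yet close to one, a share of 6.96% (95% Wilson interval 6.38% to 7.58%). A peak belonged to these near-intergenic peaks when its nearer edge was over 3000 bp from the transcription start site (TSS) of every transcript in the GENCODE M21 annotation of mm10, it overlapped no annotated gene body of any type, and the nearest protein-coding TSS was at most 50000 bp away. The rule used position alone. The whole list held 6969 peaks, and the other peaks on these chromosomes were 4864 promoter peaks (within 3000 bp of a TSS), 1088 gene body peaks and 478 far intergenic peaks, whose nearest coding TSS was over 50000 bp away.

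The peaks came from CUT & RUN, an assay in which an antibody directs a nuclease to cut chromatin beside the bound protein. The cells were adult neural stem cells (NSCs, labelled neural progenitor cells) from the dentate gyrus of mice aged 7 to 8 weeks, cultured, and labelled WT. All libraries came from Hopx-CreERT2::Setd1afl/fl::H2B-GFP animals, in which both *Setd1a* alleles are floxed. Cells received quiescence medium 16 h after plating, in which BMP4 and FGF2 stood at 20 ng/ml each and EGF was absent, and they were taken on day 5. There were 2 Setd1a libraries from independent cultures and 1 IgG library, and the list analysed holds the peaks present in both Setd1a libraries, with no height, score or read count per peak. The depth is therefore unknown, no spread between replicates could be computed, and the intervals given below cover counting error over peaks, which share libraries and are not independent replicates. Promoter peaks were present at 4 of 8 markers of radial glia and NSCs (*Sox2*, *Nes*, *Vim* and *Gfap*) and at 2 of 4 of the oligodendrocyte lineage (*Olig2* and *Pdgfra*). They were absent at 4 of 4 neuronal, 4 of 4 microglial and 3 of 3 endothelial markers on these chromosomes. Of all coding genes there 24.1% had a promoter peak, and in the longer marker lists used below 9 of 28 genes of radial glia and astrocytes and 1 of 17 neuronal genes had one. Counts this small were not tested against that background.

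Setd1a is the catalytic subunit of a COMPASS complex that methylates lysine 4 of histone H3. Its partner Cxxc1 binds unmethylated CpG dinucleotides, and trimethylation of this lysine is best known at CpG-rich promoters of active genes. Intergenic sequence near genes can hold enhancers, promoters of unannotated transcripts and small RNA genes, and most of it in mammals is poor in CpG.

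Short stretches of 3 kinds of member are shown first because the results below turn on them. The first kind is the near-intergenic peaks with a site for NRF1, a factor of CpG-rich promoters, in their middle 300 bp. Each stretch is 40 bp of the plus strand (mm10), named by the nearest protein-coding gene, with the match to GCGCANGCGC in capitals, read on either strand.
Ptma, chr1:86487620-86487659: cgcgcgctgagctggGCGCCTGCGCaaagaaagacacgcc
Shf, chr2:122375678-122375717: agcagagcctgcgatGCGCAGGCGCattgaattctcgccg
Rflna, chr5:124964282-124964321: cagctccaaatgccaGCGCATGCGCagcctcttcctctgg
Zfp239, chr6:117879506-117879545: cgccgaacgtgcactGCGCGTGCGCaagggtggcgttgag
Lrp3, chr7:35234919-35234958: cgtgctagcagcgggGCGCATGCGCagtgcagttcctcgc
Stard10, chr7:101310835-101310874: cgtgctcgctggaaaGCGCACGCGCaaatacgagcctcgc
Psma3, chr12:70968942-70968981: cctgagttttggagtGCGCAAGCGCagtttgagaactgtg
Gm20219, chr17:56547196-56547235: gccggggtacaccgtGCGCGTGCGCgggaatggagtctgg

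The second kind is the CpG-rich members, shown by the middle 150 bp of the 3 with most CpG dinucleotides, those near *Pax3*, *Elovl5* and *Zfp239*. The *Elovl5* stretch holds 3, since most of those in that wide peak lie outside its middle. CpG dinucleotides are in capitals, on the plus strand of mm10.
Pax3, chr1:78216917-78217066: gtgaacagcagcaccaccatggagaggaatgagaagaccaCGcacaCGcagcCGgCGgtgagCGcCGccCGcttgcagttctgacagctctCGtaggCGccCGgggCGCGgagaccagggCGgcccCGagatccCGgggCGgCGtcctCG
Elovl5, chr9:77911111-77911260: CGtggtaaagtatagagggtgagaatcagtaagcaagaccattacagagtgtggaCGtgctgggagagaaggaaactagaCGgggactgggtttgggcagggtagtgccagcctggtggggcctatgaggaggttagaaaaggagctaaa
Zfp239, chr6:117879585-117879734: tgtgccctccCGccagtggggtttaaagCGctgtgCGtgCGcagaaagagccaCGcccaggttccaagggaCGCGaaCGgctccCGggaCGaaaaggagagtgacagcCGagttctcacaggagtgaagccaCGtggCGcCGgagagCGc

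The third kind is members beside regulatory genes of NSCs, shown by the middle 100 bp of 3 peaks. These are examples and not a typical sample. Of the 25 peaks near the listed genes described below, 2 were CpG-rich, the *Ccne1* peak among them. Capitals mark matches to the motifs searched, which in the *Fos* stretch are the GC box GGGCGG and the E-boxes given below with the motifs, and in the *Ccne1* stretch the GC box, an E-box and the forkhead site TGTTTAC, each on either strand. The *Notch1* stretch held none of the motifs searched, though the wider middle 300 bp of that peak held the SOX site CATTGT.
Fos, chr12:85455256-85455355: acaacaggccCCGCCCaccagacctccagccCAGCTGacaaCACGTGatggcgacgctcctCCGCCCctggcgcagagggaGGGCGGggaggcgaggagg
Ccne1, chr7:38085116-38085215: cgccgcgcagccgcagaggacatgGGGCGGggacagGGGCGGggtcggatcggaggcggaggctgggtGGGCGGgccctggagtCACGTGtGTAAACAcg
Notch1, chr2:26535713-26535812: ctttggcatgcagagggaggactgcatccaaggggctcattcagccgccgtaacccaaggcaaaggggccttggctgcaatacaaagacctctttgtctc

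The near-intergenic peaks were narrow and mostly poor in CpG. Their median width was 411 bp (quartiles 307 and 595 bp, range 233 to 1873 bp), and together they covered 232.159 kb. The median GC content was 50.2% (quartiles 46.0% and 54.6%), and the median ratio of observed to expected CpG was 0.211. A median member held 6 CpG dinucleotides, and 18 members held none. Sequence with copies elsewhere did not make up most of them, since in 6 of the 481 peaks (1.25%) over 50% of the 31-bp words occurred at another place in the genome, and no member held a word of the mitochondrial genome.

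The eligible intergenic sequence gave the background for these values. It comprised 1140251 tiles of 300 bp, or 342.075 Mb, that met the same rule. The tiles had a median GC content of 43.0% and a CpG ratio of 0.152, and 0.513% of them were CpG-rich, meaning a GC content of at least 50% and a CpG ratio of at least 0.6. Measured over the same length, the middle 300 bp of the members had a median GC content of 50.7%, and 32 of 481 (6.65%) were CpG-rich. Soft-masked repeats covered over 50% of the length of 34.6% of the tiles and, measured over whole peaks, of 6.03% of the members. Only uniquely mapped reads were kept, which bears on repeats in the peaks but not in the tiles. The part of mapping and of window length in this contrast was not tested.

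The 10 widest members, 1261 to 1873 bp, lay beside genes of different functions. The widest, 1873 bp, was 11101 bp upstream of *Camk2g*, a subunit of a calcium-dependent kinase. The next, 1815 bp, was 3306 bp upstream of *Kdm6b*, a demethylase of lysine 27 of histone H3, and contained the TSS of a *Kdm6b* transcript of RefSeq that lies outside the GENCODE starts. A peak of 1614 bp lay 7543 bp downstream of the TSS of *Gpr37l1*, a glial receptor, one of 1490 bp lay 7174 bp upstream of *Hepacam*, an astrocyte adhesion protein, and one of 1261 bp lay 18061 bp upstream of *Klf13*, a Krüppel-like factor. The others were nearest to *Asprv1* (1564 bp), *Elovl5* (1532 bp), a fatty acid elongase, *Trmt61a* (1515 bp), a tRNA methyltransferase, *Gm9833* (1376 bp) and *Bod1* (1373 bp). Of these 10 genes, *Kdm6b*, *Gpr37l1*, *Klf13* and *Trmt61a* also had a promoter peak.

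The distances at the edges of the rule were continuous with those beyond it. The members nearest to a coding TSS were those of *Jmy* (3004 bp, 434 bp wide) and *Barx1* (3017 bp, 812 bp). They were followed by those of *Plxna4* (3034 bp, 276 bp), *Fscn2* (3238 bp, 452 bp) and *Fgf17* (3247 bp, 268 bp). The last peaks left out as promoter peaks are given by their distance to the nearest TSS of any transcript. They included peaks at 2994 bp (574 bp wide) and 2992 bp (950 bp). Their nearest coding genes were *Shisal1* and *Tle2*, but the TSS measured need not be that of the coding gene. On the same measure the closest member, that of *Jmy*, lay at 3004 bp. At the other edge the farthest members were those of *Isg20* (49451 bp), *Olfr720* (49469 bp), *Dct* (49792 bp), *Cyp3a41a* (49855 bp) and *Mpdz* (49964 bp), 239 to 643 bp wide. The first peaks past it were nearest to *9530068E07Rik* (50468 bp) and *Psme4* (50526 bp).

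CpG-rich peaks were more frequent among the near-intergenic peaks than among the other peaks outside promoters, though most members were not CpG-rich. The CpG content of gene body and far intergenic sequence at large was not computed, and its part in this difference was not tested. Of the 481 members, 33 were CpG-rich over their whole width (6.86%, 95% Wilson interval 4.93% to 9.48%), against 23 of 1088 gene body peaks (2.11%) and 11 of 478 far intergenic peaks (2.30%). The odds ratio was 3.41 against gene body peaks (adjusted p = 3.03e-05) and 3.13 against far intergenic peaks (adjusted p = 0.00194), in two-sided Fisher's exact tests over peaks with Benjamini-Hochberg adjustment over 12 comparisons of classes. Promoter peaks were CpG-rich in 74.6% of cases, so the members stood far closer to the other distal classes than to promoters (odds ratio 0.0251, Fisher's exact test, adjusted p = 1.48e-197).

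**Figure D1:**
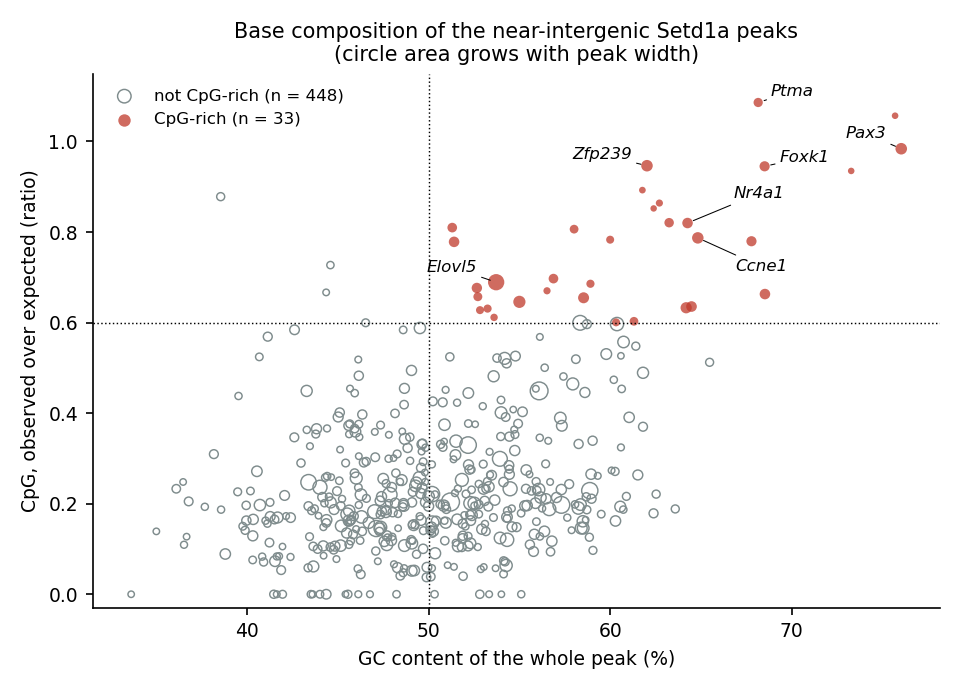
GC content (%) of each of the 481 near-intergenic Setd1a peaks against its ratio of observed to expected CpG, with circle area growing with peak width and dotted lines at 50% and 0.6. The 33 CpG-rich peaks (filled) lie above and to the right of both lines, and the median ratio over all members is 0.211.

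The 10 members with most CpG dinucleotides lay beside genes of different functions. The peak 19472 bp upstream of *Pax3*, a paired-box transcription factor of the dorsal neural tube, was 772 bp wide with 108 CpG dinucleotides and a GC content of 76.0%. Next came *Elovl5* (76 CpG), *Zfp239* (70 CpG), *Foxk1*, a forkhead factor of metabolism (66 CpG), and *Ccne1*, which encodes cyclin E (63 CpG, 21362 bp downstream of the TSS). The peak 38778 bp upstream of *Ptma*, the gene of prothymosin alpha, had the highest CpG ratio, 1.09. Besides *Kdm6b* (64 CpG) and *Cirbp*, a cold-inducible RNA-binding protein (63 CpG), the 10 members with most CpG dinucleotides were completed by *Rps6ka1*, a kinase of the MAP kinase pathway (55 CpG), and *Nr4a1*, an immediate early nuclear receptor (54 CpG, 7423 bp upstream). The *Kdm6b*, *Cirbp* and *Rps6ka1* peaks had CpG ratios of 0.449, 0.599 and 0.597 and fell short of the CpG-rich criterion.

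CpG-rich members, 33 in number, did not differ past the threshold from the rest in width or in the state of the nearest promoter. Their median width was 517 bp against 407.5 bp for the 448 others, and 17 of 33 against 153 of 448 were at least 500 bp wide (odds ratio 2.05, Fisher's exact test, adjusted p = 0.131 over 9 tests). The nearest gene had a promoter peak for 11 of 33 CpG-rich members and for 145 of 448 others (odds ratio 1.04, Fisher's exact test, adjusted p = 1). They did lie near RefSeq starts more often, as given below.

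The near-intergenic peaks were wider than the far intergenic peaks. At least 500 bp were covered by 170 of 481 members (35.3%), against 129 of 478 far intergenic peaks (27.0%, odds ratio 1.48, adjusted p = 0.00917), 343 of 1088 gene body peaks (31.5%, odds ratio 1.19, adjusted p = 0.174) and 51.1% of promoter peaks (odds ratio 0.523, adjusted p = 1.33e-10) in the same exact tests. The width difference from far intergenic peaks did not pass at a threshold of 700 bp (odds ratio 1.27).

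Another peak of any class lay within 10 kb of 76 members (15.8%), of 7.95% of far intergenic peaks, 13.6% of gene body peaks and 19.2% of promoter peaks. The rule bears on these shares, since it keeps far intergenic peaks over 50000 bp from every coding TSS, out of reach of the peaks at coding promoters, and nothing is read from that difference. The exact tests against gene body peaks and promoter peaks did not pass the threshold (adjusted p = 0.298 and 0.0898). With members within 20 kb only, the test against gene body peaks passed (odds ratio 1.81, exact test, adjusted p = 0.00232). Against promoter peaks the comparison turned with the settings, from an odds ratio of 0.504 with neighbours within 5 kb to 1.26 after merging of peaks under 1000 bp apart.

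Members with over 50% of their bases in soft-masked repeats numbered 29 (6.03%). This was above the 3.03% of gene body peaks (odds ratio 2.05, exact test, adjusted p = 0.0107) and the 0.884% of promoter peaks (odds ratio 7.19, adjusted p = 3.66e-12), whereas far intergenic peaks had 6.28% (odds ratio 0.958, adjusted p = 0.894). The difference from gene body peaks did not pass with members within 20 kb only (odds ratio 1.99). The pair upstream of *Vmn1r77*, a vomeronasal receptor gene, was masked over 70.1% and 61.3% of its length, and the peaks near *Olfr720* and *Cyp3a41a* over 91.3% and 97.5%.

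**Figure D2:**
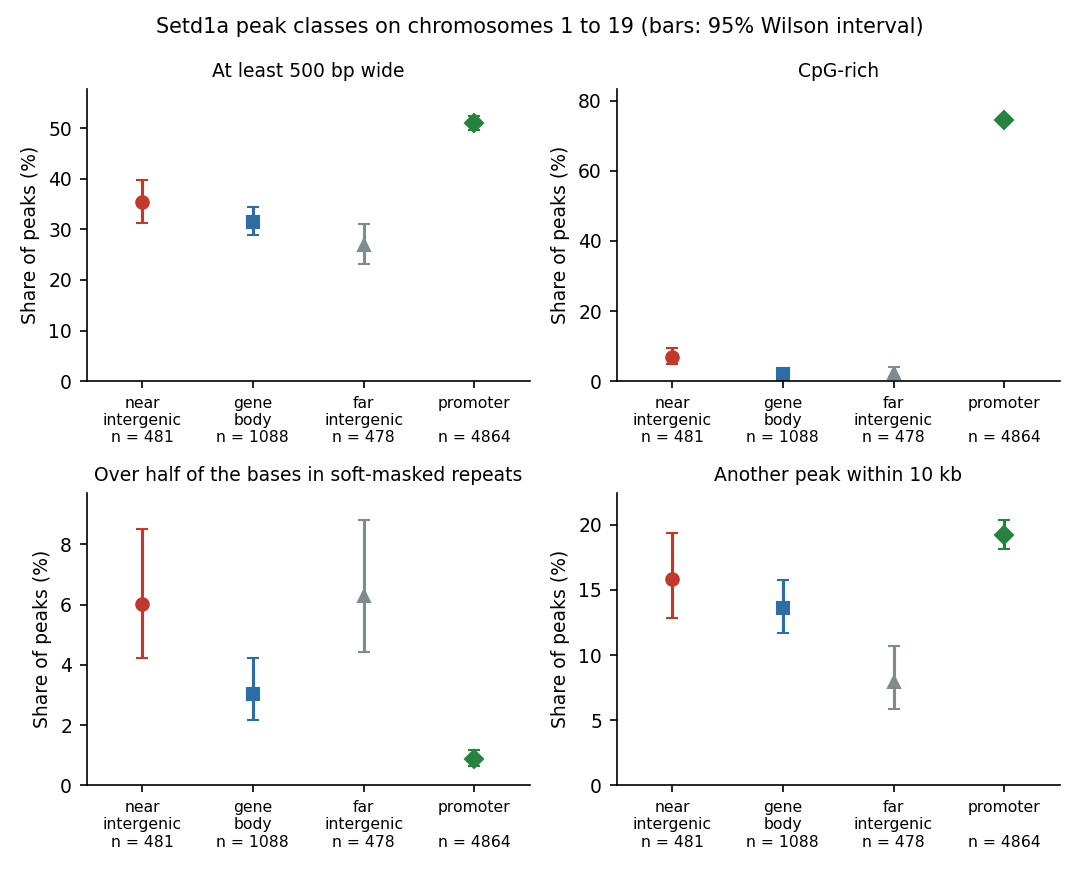
Shares of peaks (%) in the 4 classes of Setd1a peaks, with 95% Wilson intervals for counting error, for peaks at least 500 bp wide, CpG-rich peaks, peaks with over 50% of bases in soft-masked repeats and peaks with another peak within 10 kb. Near-intergenic peaks were CpG-rich in 6.86% of cases, against 2.11% in gene bodies and 2.30% in far intergenic sequence, and promoter peaks lie far above at 74.6%.

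The density of near-intergenic peaks differed little with distance to the gene and was higher around genes with a promoter peak. Per Mb of eligible sequence there were 1.39 peaks at 3 to 5 kb from the nearest coding TSS, 1.51 at 5 to 10 kb, 1.23 at 10 to 20 kb and 1.47 at 20 to 50 kb, with overlapping 95% Poisson intervals. The median distance was 20042 bp (quartiles 9499 and 32686 bp). Upstream of the gene lay 326 members, or 67.8% (95% Wilson interval 63.5% to 71.8%), and 69.5% of the eligible tiles lay upstream as well.

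Around genes with a Setd1a promoter peak the density was 2.42 peaks per Mb (95% Poisson interval 2.06 to 2.84, 156 peaks), and around genes without one it was 1.17 (1.05 to 1.30, 325 peaks). The difference had the same direction in each distance range. The intervals were separate from 5 kb outwards, with 2.90 against 1.22 at 5 to 10 kb, 2.26 against 0.995 at 10 to 20 kb and 2.32 against 1.26 at 20 to 50 kb, and overlapped at 3 to 5 kb, where the nearest genes had 12 and 24 peaks.

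**Figure D3:**
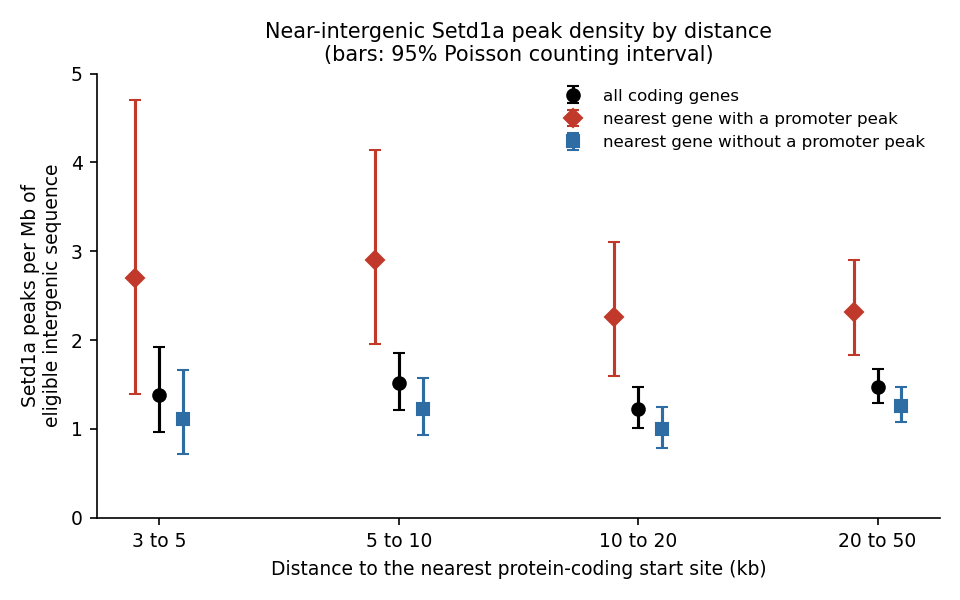
Near-intergenic Setd1a peaks per Mb of eligible intergenic sequence by distance (kb) to the nearest protein-coding TSS, for all genes (circles), genes with a promoter peak (diamonds) and genes without (squares), with 95% Poisson counting intervals. Over all genes the values lie between 1.23 and 1.51, and genes with a promoter peak lie above genes without in each range.

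Counted by gene, the 481 members had 448 nearest coding genes, 2.15% of the 20807 coding genes on these chromosomes and 2.89% of the 15517 genes nearest to some eligible tile. Of the 448, 139 had a promoter peak (95% Wilson interval 26.9% to 35.5%) against 3047 of the 15069 other eligible genes (20.2%), with an odds ratio of 1.77 (two-sided Fisher's exact test over genes, p = 1.06e-07). Expression of these genes was not analysed here, and its part in this difference was not tested.

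Most nearest genes had 1 member, 31 had 2, and *Eef1a1*, a translation elongation factor, had 3. Its members lay 14331, 38019 and 38669 bp upstream and were 345, 321 and 563 bp wide, with CpG ratios of 0.128, 0.584 and 0.455. The gene had no promoter peak in the list. Genes with 2 members included feedback inhibitors and cytokines of signalling pathways. *Socs3*, an inhibitor of JAK and STAT signalling, had members 28782 and 5294 bp downstream of its TSS, 1004 and 656 bp wide. *Nfkbia*, the inhibitor of NF-kappa-B, had members 45416 and 28109 bp downstream, and *Lif*, a cytokine that acts on neural stem cells, had members 24419 and 29597 bp downstream, 590 and 1018 bp wide. The closest pairs were 302 bp apart at *Kdm6b*, 329 bp apart at *Eef1a1* and 427 bp apart at *Col5a1*. These genes were picked from the 31 after their values had been seen.

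Several regulators of NSC identity and quiescence were among the nearest genes. The 12 lists below were read against the 2.15% of all coding genes that were nearest to a member, as a description only, since both the lists and the peaks had been seen. Over all lists, 22 of 290 coding genes (7.59%) were nearest to a member, with 25 peaks. Listed genes had more eligible sequence per gene, 29.8 kb against 21.9 kb, and per Mb of it there were 3.49 peaks (95% Poisson interval 2.26 to 5.15) against 1.36 (1.24 to 1.49) around the other genes. Of the 22 genes, 9 also carried a promoter peak, as did 107 of the 290 listed genes and 24.1% of all coding genes. The part of promoter peaks in the higher density around listed genes was not tested.

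Transcription factors of stem cells and progenitors supplied 5 of 45 genes. The member 29037 bp downstream of the TSS of *Sox9*, a factor of radial glia, was 640 bp wide, that of *Sox11*, a factor of neuronal precursors, was 339 bp wide at 13690 bp downstream, and that of *Sox21* was 727 bp wide at 5501 bp downstream. *Tcf3*, which encodes E proteins, had one of 314 bp at 14971 bp upstream. *Pou3f2* had one of 438 bp at 5734 bp upstream, and its middle held a match to the RBPJ site CGTGGGAA. Over all peaks that site stood in 0.624% of members, 0.643% of gene body peaks and 0.209% of far intergenic peaks. It stood in 1.17% of promoter peaks and 0.301% of eligible tiles. Of these 5 genes, *Tcf3* alone had a promoter peak.

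The Notch pathway, which acts in quiescent and in proliferating NSCs, supplied its receptor *Notch1* and its target *Hes1*, 2 of 25 genes, each with 2 members and a promoter peak. The *Notch1* members lay 16755 and 18827 bp upstream, 1488 bp apart, and were 584 and 545 bp wide with 6 and 4 CpG dinucleotides. The *Hes1* members lay 7944 bp upstream (431 bp wide, 1 CpG) and 5237 bp downstream (365 bp wide, 20 CpG), the second within 139 bp of a RefSeq start of *Gm32998*. Members near both genes were thus poor in CpG, apart from the one downstream of *Hes1*.

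Of the BMP pathway, which induces quiescence in this culture, 1 of 30 genes was nearest to a member (3.33%), with 0.910 peaks per Mb of eligible sequence. It was *Id2*, a BMP target that blocks proneural dimers, whose member of 340 bp lay 13018 bp upstream and held the E-box CAGCTG. FGF and EGF signalling had 3 of 22 genes, the receptor *Fgfr3* (1001 bp wide, 15187 bp upstream) and the inhibitors *Spred2* (879 bp, 5957 bp upstream) and *Dusp4* (401 bp, 28169 bp upstream). The clock list had *Tef* (1 of 21), a PAR bZIP factor, and the cell cycle list *Ccne1* (1 of 35), shares of 4.76% and 2.86%. Like that of the BMP list, these shares rest on 1 gene each and stood near the background of 2.15%. Genes of H3K4 methylation had none of 21, with 9.98 kb of eligible sequence per gene, the least of the lists.

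Immediate early genes had 4 of 27 genes and 5 peaks. *Fos* had a member of 825 bp at 18173 bp upstream, with 32 CpG dinucleotides and the GC boxes and E-boxes shown above, and one of 425 bp at 4815 bp downstream. A further peak whose nearest coding TSS was that of *Fos*, at 50616 bp, fell just outside the rule. *Nr4a1* is described above. The orphan receptor gene *Nr4a2* had a member of 327 bp at 48747 bp downstream, and *Btg2*, an antiproliferative gene of neurogenic progenitors, one of 413 bp at 15795 bp downstream.

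The marker lists had radial glia and astrocytes with 3 of 28 genes (*Sox9*, *Hepacam* and *Prom1*, which encodes prominin 1, 49331 bp upstream), the oligodendrocyte lineage with 2 of 11 (*Olig2*, 955 bp wide at 33402 bp upstream, and *Mog*, a myelin gene, 303 bp wide at 5366 bp upstream) and neurons with 1 of 17 (*Calb2*, calretinin, 569 bp wide at 14710 bp upstream). Microglia and endothelium had none of 12. Promoter peaks were absent at *Mog* and *Calb2* and present at *Olig2*.

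**Figure D4:**
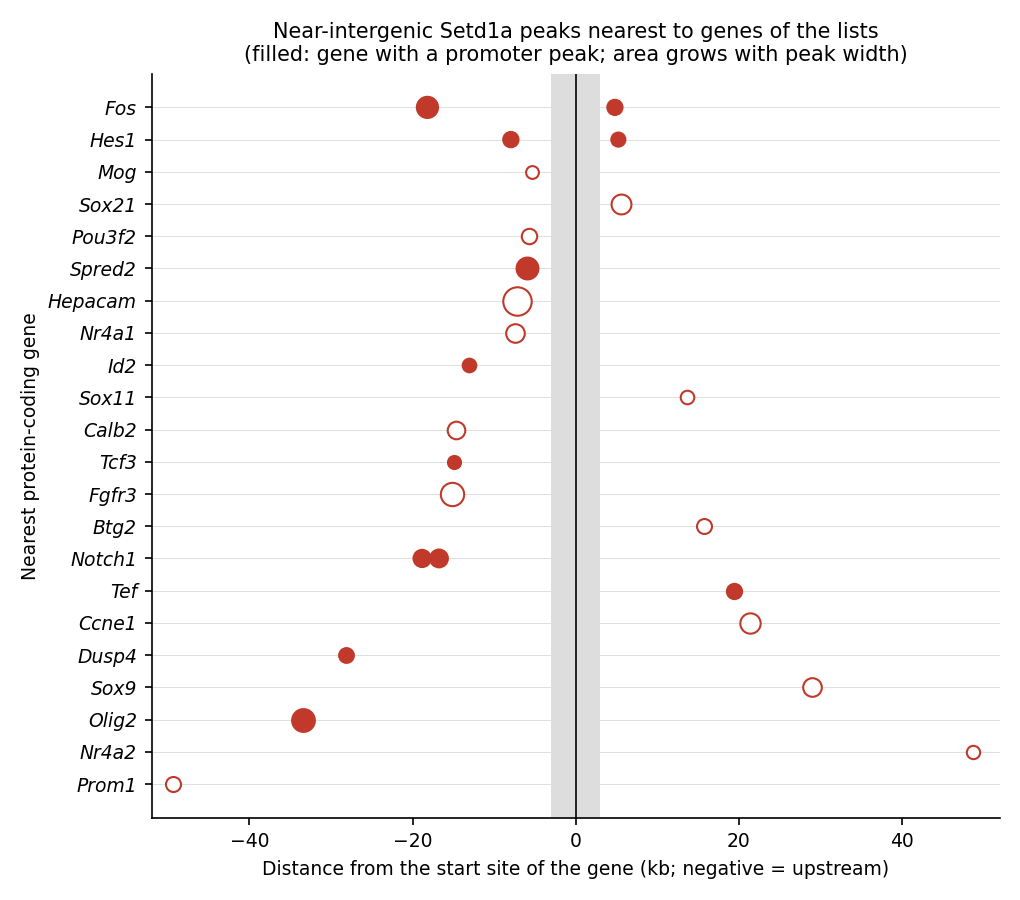
Position of the 25 near-intergenic Setd1a peaks nearest to 22 listed genes, as the distance (kb) of the nearer edge from the TSS with upstream negative; the grey band spans 3 kb on each side, filled circles mark genes with a promoter peak, and area grows with width. Upstream of the gene lie 16 of the peaks, and *Fos*, *Hes1* and *Notch1* have 2 each.

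Some members lay at transcripts or elements that a second annotation, RefSeq on GRCm38.p6, places in the intergenic sequence. A RefSeq TSS was inside 9 members, within 500 bp of 23 and within 3000 bp of 66 (13.7%), against 7.17% of gene body peaks (odds ratio 2.06, adjusted p = 0.000546) and 7.53% of far intergenic peaks (odds ratio 1.95, adjusted p = 0.00702; Fisher's exact tests, adjusted over 9). In that annotation these 66 members lay within the promoter window of a start, and 415 members were left without them. RefSeq gene bodies were not examined. The share of background sequence near RefSeq starts was not computed for any class, and the classes are set by GENCODE positions. The part of this in the differences from gene body and far intergenic peaks was not tested. A RefSeq TSS lay within 3000 bp of 11 of 33 CpG-rich members (33.3%) and of 55 of 448 others (12.3%, odds ratio 3.57, Fisher's exact test, adjusted p = 0.00702). Among the 11 were the peaks of *Pax3*, 893 bp from *Gm2102*, and of *Zfp239*, over the start of *Gm38882*. Without the 66 peaks and their counterparts in the gene body and far intergenic classes, the odds ratio for CpG-rich sequence was 3.27 against gene body and 3.04 against far intergenic peaks.

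Tested enhancers that RefSeq takes from transgenic embryos overlapped 7 members (1.46%), against 1.38% of gene body peaks and 2.09% of far intergenic peaks (Fisher's exact tests, adjusted p = 1 and 0.642) and 0.123% of eligible tiles. Overlap was counted over whole peaks but over 300 bp for each tile. The part of this length in the contrast with tiles was not tested. The recorded tissues of these enhancers differed, and their part among all such enhancers was not tested. The element mm1445 near *Btg2* was recorded in neural tube, forebrain, midbrain, hindbrain, dorsal root ganglion, trigeminal ganglion, cranial nerve and other tissue. That near *Nacc2* (mm561) was recorded in hindbrain, and that near *Traf3* (mm3) in neural tube, forebrain and hindbrain. The element mm1606, recorded in neural tube, forebrain, midbrain and hindbrain, contained the whole 1515 bp peak near *Trmt61a*. The elements near *Fos* (mm260) and *Ski* (mm318) were recorded in heart, and that near *Ssbp3* (mm1527) in limb, branchial arch and trigeminal ganglion.

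A pair of members lay at tRNA genes, small genes read by RNA polymerase III from promoters within them, and both were also NRF1 site members. The peak of 642 bp upstream of *Shf* contained a whole histidine tRNA gene, on the minus strand and shown here in its own direction, and the peak of 371 bp upstream of *Psma3* overlapped 26 bp of a lysine tRNA gene on the minus strand.
Histidine tRNA gene, chr2:122375494-122375565: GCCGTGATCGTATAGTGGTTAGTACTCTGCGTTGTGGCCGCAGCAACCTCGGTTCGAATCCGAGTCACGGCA
Of the gene body and far intergenic peaks none overlapped a tRNA gene (Fisher's exact tests, adjusted p = 0.169 and 0.642), and 17 promoter peaks did. Most of the 161 tRNA genes wholly within eligible sequence thus had no member, at a depth that is unknown. Only uniquely mapped reads were kept, and the part of mapping in this count was not tested.

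NRF1 sites were the motif in which near-intergenic and gene body peaks differed. The match GCGCANGCGC stood in the middle 300 bp of 8 of 481 members (1.66%) and of none of 1088 gene body peaks (adjusted p = 0.000499, two-sided Fisher's exact tests adjusted over 60 tests of 20 motifs). By the same exact tests it stood in 0.418% of far intergenic peaks (adjusted p = 0.293) and 8.55% of promoter peaks (odds ratio 0.181, adjusted p = 1.29e-08). Of the eligible tiles 0.0743% held it, and of the RefSeq promoters of the same length 4.68%. Of the 8 members, 5 were CpG-rich, 4 lay within 3000 bp of a RefSeq TSS, and 3 had a nearest gene with a promoter peak (*Ptma*, *Shf* and *Psma3*). Without peaks near RefSeq starts the difference from gene body peaks was 0.964 percentage points in place of 1.66 (exact test, adjusted p = 0.0356). It was 0.832 in the narrowest window around the midpoint that was tried (exact test, adjusted p = 0.0481) and 2.51 with members within 20 kb only. The site holds CpG dinucleotides, and the part of CpG content in this difference was not tested.

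The other 19 motifs did not pass the test against gene body peaks. Of these, the forkhead site alone had an unadjusted p under 0.05, with 2.49% of members against 4.96%. None of the 20 passed against far intergenic peaks (1 at an unadjusted p under 0.05, the SOX site, with 16.6% against 21.8%). The E-box CAGCTG of proneural dimers was found in 22.5% of members, 24.1% of gene body peaks, 20.1% of far intergenic peaks and 11.2% of tiles. The AP-1 site TGANTCA, bound by Fos and Jun, was found in 11.9%, 13.3%, 13.8% and 8.79% of these, and the GC box GGGCGG in 10.6%, 8.27%, 7.53% and 2.92%. The CTCF core CCANNAGNNGGC, of the insulator protein, was in 3.33% of members, 3.40% of gene body and 1.67% of far intergenic peaks.

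Promoter peaks had a different set of motifs, with 12 of the 20 past the threshold. Members held 5 more often than promoter peaks, namely the AP-1 site (11.9% against 4.50%, odds ratio 2.85), the SOX site CATTGT (16.6% against 6.54%, 2.85), the TEAD site CATTCC (20.2% against 10.6%, 2.14), the TATA box TATAAA (9.15% against 4.34%, 2.22) and the E-box CAGCTG (22.5% against 15.5%, 1.58). They held 7 less often, among them the GC box (10.6% against 59.9%, 0.0794), the ETS site CCGGAAGT (0.624% against 5.28%, 0.113), and the E-box CACGTG of Bhlhe40, Myc and clock factors (5.20% against 8.68%, 0.577). The median GC content was 50.2% in members and 62.3% in promoter peaks. The part of base composition in these motif differences was not tested. The TATA and SOX letters were no more common in members than in the tiles, where they stood in 24.3% and 17.6%. A match to these letters is not a bound site.

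**Figure D5:**
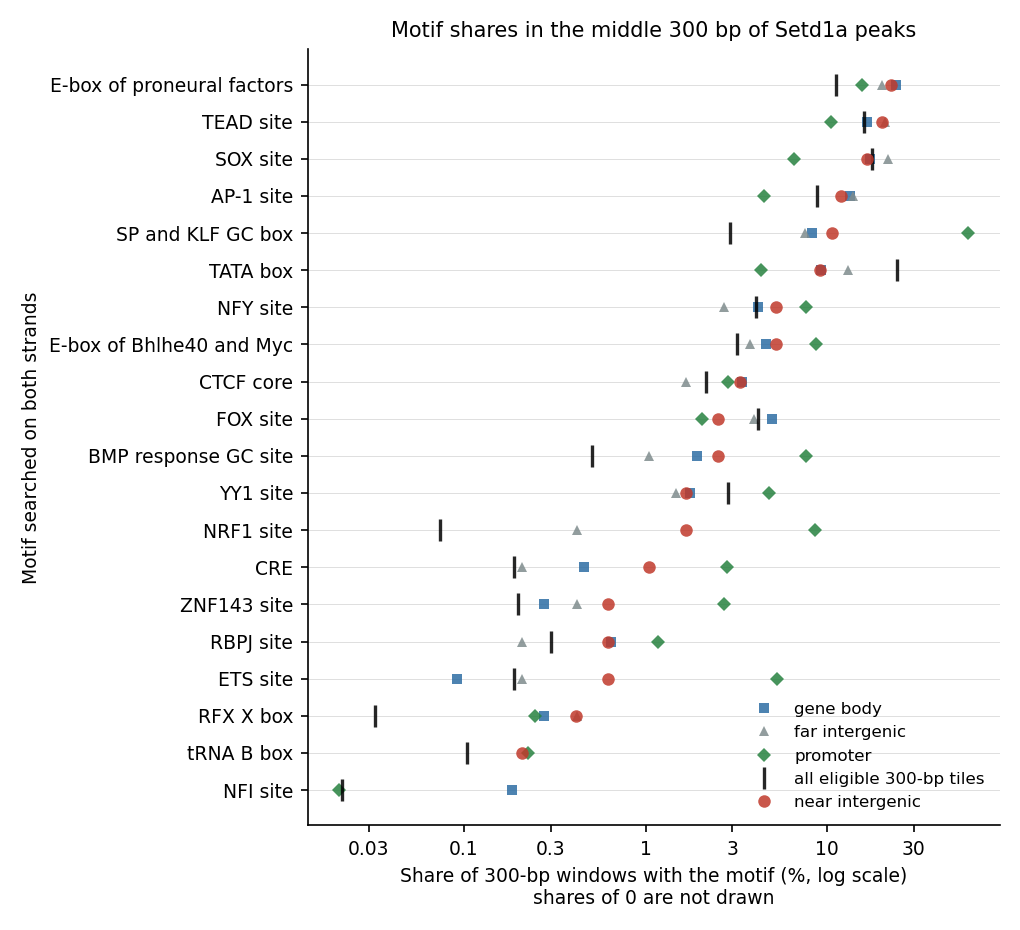
Share of windows of 300 bp (%, log scale) that hold each of 20 motifs on either strand, in the middle of near-intergenic (circles), gene body (squares), far intergenic (triangles) and promoter peaks (diamonds) and in all eligible tiles (bars). The NRF1 site stands at 1.66% in near-intergenic peaks, with no gene body peak to draw, and the GC box at 59.9% in promoter peaks against 10.6%.

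Near-intergenic peaks occurred on each of the 19 chromosomes. The density per Mb of eligible sequence lay between 0.879 on chromosome 6 and 2.25 on chromosome 12 (95% Poisson intervals 0.537 to 1.36 and 1.48 to 3.27). Chromosome 12 carried 27 of the members, those of *Id2*, *Sox11*, *Fos*, *Nfkbia*, *Psma3* and *Traf3* among them.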

How the data were processed

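The authors trimmed reads with Trimmomatic 0.32, mapped them uniquely to mm10 with Bowtie2 2.1.0, filtered them with SAMtools 0.1.18 and called peaks with MACS2 2.2.8, per the methods and the labels. The deposited values are other than counts or signal: they are the start and end position of each peak, in bp, in 1 list. Per the methods, the authors kept the intersection of the replicates' peaks. Whether IgG served as control in peak calling is not given in the sources used here. Peak classes, distances, tiles, base composition and motifs were computed in Python 3.11.15 with numpy 2.4.6, scipy 1.17.1, pandas 2.3.3 and numba 0.67.0 (figures with matplotlib 3.10.9) from GENCODE M21 and the RefSeq GRCm38.p6 genome, which share the coordinates of mm10. Tiles were all 300-bp windows that met the rule. CpG-rich meant a GC content of at least 50% and an observed to expected ratio of at least 0.6. Fisher's exact tests compared peaks or genes of disjoint classes, with a threshold of 0.05 after Benjamini-Hochberg adjustment. Peaks of 1 list are not replicates of a condition, so p-values describe this list. Classing and motif search were tested on simulated data first. Members, lists, motifs and tests were chosen with earlier results of these data known. Genes named were those with 3 members, listed genes, and the nearest genes of the 10 widest members, the 10 with most CpG, the 5 nearest and 5 farthest from a TSS and those at tRNA genes. The genes with 2 members, at NRF1 sites, at enhancers, with high repeat content and just outside the rule were named after their values had been seen. Alternatives covered the TSS window, distance limit, annotation, gene bodies, peak width, merging, thresholds and motif window. Columns of values left unused numbered 0. Of the genes first listed, 1 is not reported here.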

Additional observations from a re-analysis of the deposited data

How the results depend on the processing

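Leaving out a replicate was not possible, since both Setd1a libraries stand in 1 list. No paired analysis was possible because replicate columns are absent. Of 216 values under alternative settings, 194 kept their direction and side of the threshold or stayed within 1.5 times. The higher shares of CpG-rich members against gene body (odds ratio 2.21 to 4.46) and far intergenic peaks (2.55 to 6.83) and of nearest genes with a promoter peak (1.43 to 2.26) kept theirs in each of 12 settings. The number of members was 239 within 20 kb. The comparison of neighbours with gene body peaks gave 0.956 with a TSS window of 5000 bp and 1.81 within 20 kb (main 1.19), and that with far intergenic peaks 1.58 with the 5000 bp window and 1.68 for neighbours within 5 kb (main 2.17), the last 2 no longer past the threshold. The call against gene body peaks was gained within 20 kb, and the rule itself bears on the comparison with far intergenic peaks. Against promoter peaks (main 0.788) it gave 0.573 (5000 bp window), 0.771 (100 kb), 0.504 (neighbours within 5 kb) and, in a setting chosen after seeing the data, 0.723 without members within 3000 bp of a RefSeq TSS, all past the threshold, and turned to 1.20 (20 kb), 1.02 (peaks of at least 300 bp) and 1.26 (merged peaks). In that RefSeq setting the promoter peaks were left unfiltered, and 4519 of the 4864 lay within 3000 bp of a RefSeq TSS. Repeat content against far intergenic peaks turned to 1.04 (basic transcripts), 1.03 (coding gene bodies), 1.28 (peaks of at least 300 bp) and 1.28 (any masked base), and against gene body peaks it was 1.99 and not past the threshold within 20 kb. Width gave 1.30 against gene body peaks at 400 bp, now past the threshold, and 1.27 against far intergenic peaks at 700 bp, no longer past it. Motifs past the threshold numbered 2 against gene body peaks with a TSS window of 1000 or 5000 bp and 2 against far intergenic peaks within 100 kb. The cause of these changes was not tested. With no depth known, absence from the list is no measure of absent binding.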
